A study of Mus musculus with 6 samples.

Results

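The 10 genes described here encode mucins and trefoil factors, the proteins that epithelia of gut, stomach and airway place on and above their surface. They are the gel-forming mucins Muc5b and Muc6, the membrane mucins Muc1, Muc4, Muc13, Muc16 and Muc20, and the trefoil factors Tff1, Tff2 and Tff3. They were chosen by gene name with earlier results of these data known, out of 19938 genes that the array annotation names with 1 symbol, and each was read from its probe set of highest mean. For all 10, that was the only probe set with the gene's symbol alone, so the choice by brightness decided nothing.

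RNA was taken from medullary epithelial cells of the thymus, stroma in which maturing T cells meet proteins that other organs make. The Aire WT group was 3 mice of the (B6xNOD)F1 background, and the Aire KO group was 3 mice of that background labelled Aire-/-. Every mouse was 4 to 6 weeks old. The sort kept cells without CD45, with intermediate Ly51 and with high MHC class II, and each array carried the RNA of 1 animal after 2 rounds of amplification. The arrays are called WT 1 to WT 3 and KO 1 to KO 3 after the replicate numbers in the labels. The deleted part of Aire is not given in the sources used here. In a sorted bulk sample, fewer cells that express a gene and less of its RNA per cell cannot be told apart.

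Mucins are long, heavily O-glycosylated proteins. Gel-forming mucins are secreted by goblet, gland and surface cells and polymerise into mucus, whereas membrane mucins stay anchored and form the glycocalyx. Trefoil factors are small secreted peptides, stored and released with mucins, that help epithelia to restore an injured surface. In the thymic medulla, genes of this kind belong to the tissue-restricted genes whose expression by epithelial cells serves tolerance, and Aire is the transcriptional regulator known for driving many such genes.

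Median intensities of the 6 arrays lay between 92.9 and 98.2, and within-group Pearson correlations of log2 intensity, across probe sets, ran from 0.990 to 0.993. The Aire probe set read higher in the KO-labelled mice, 12.41 ± 0.02 against 11.97 ± 0.04 (SD, n = 3 each), so it does not check the genotype labels. All 11 medullary marker genes passed the intensity filter, and their summed intensity was 46000 to 46590 in WT and 48381 to 50091 in KO. This sum is weighted to its brightest genes, Cd74 (mean 13.49 in WT and 13.61 in KO) and H2-Aa (13.43 and 13.63). H2-Aa is an MHC class II gene, and the sort selected on MHC class II. Aire is itself in the sum. The sum is thus no independent measure of medullary content. By limma, Krt5 (-0.84, adjusted p = 0.00047), Krt14 (-0.44, 0.012) and Epcam (-0.37, 0.021) nevertheless fell, and Aire was the 1 that rose. Krt14 lost its call without KO 1 (0.057) or KO 2 (0.052), and Epcam without WT 3, KO 1 or KO 3 (0.058 to 0.092). Of the other lists, 8 T lineage genes summed to 908 to 1582 in WT and 653 to 907 in KO, with WT 3 highest at 1582 and the next array at 964, and Ptprc (CD45), which the sort selects against, read 115 to 180 in WT and 71 to 106 in KO. The sums were 3404 to 3725 and 3104 to 3189 for 9 dendritic cell and macrophage genes, 2634 to 2976 and 2065 to 2364 for 7 cortical epithelial genes, 423 to 439 and 480 to 508 for 4 B lineage genes, 1329 to 1535 and 1619 to 2049 for 6 fibroblast genes, and 411 to 461 and 393 to 412 for 5 endothelial genes. Of these marker genes, 1 T lineage, 2 B lineage, 2 dendritic cell and macrophage, 2 cortical, 1 fibroblast and 1 endothelial gene did not pass the filter. The sums hide single genes: the macrophage genes Adgre1 (-1.58, limma adjusted p = 2.3e-07), Itgam (-1.29, 3.4e-05) and Csf1r (-0.54, 0.0011) fell, the first 2 from WT levels that alone passed the filter, while Lyz2, the brightest of that list, stood at -0.06. Of the other lists, Cd3g, Enpep, Ctsl, Col1a1 and Ptprc (-0.62, limma adjusted p = 0.022) fell and Prss16, Cd79b, Pax5 and Dcn rose. Of the genes tested, 1 of 7 T lineage, 3 of 7 dendritic cell and macrophage, 2 of 5 cortical and 1 of 5 fibroblast genes fell. Risen were 1 cortical, 1 fibroblast and 2 of 2 B lineage genes, and 0 of 4 endothelial genes were called. Over all genes tested, 14.1% fell and 12.0% rose. Cd3e (-0.01) and Col1a2 (0.04) did not pass, and Ms4a1 (-0.48) and Cd79a (-0.11) were too dim to test. The calls of Cd3g (with trended robust variances), Ptprc, Prss16, Cd79b and Pax5 were lost under some alternatives. The array values have no true zero, and the part of these cells in the results below was not tested.

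Levels are given as log2 intensity, a difference is the mean of KO less that of WT, and SE is the standard error in a limma fit over 13925 genes. A gene entered the fit if it exceeded a log2 intensity of 5.97 on at least 3 of the 6 arrays, and it is said to have risen or fallen if its Benjamini-Hochberg adjusted p was under 0.05. The choice of the 10 genes used this very contrast, so their differences are given as a description, without p-values. Of the 10, 7 entered the fit: Tff3, Muc13 and Tff1 fell, none rose, and Tff2, Muc1, Muc5b and Muc4 did not pass. At an unadjusted limma p under 0.05 the counts were also 3 and 0, where 19.4% of all genes tested were lower, 19.2% higher and 38.6% either. Over all genes tested, 14.1% fell and 12.0% rose, and nothing is read from the comparison with the 10. Those percentages change when an array is left out, which also leaves fewer mice. Without KO 1, 1364 genes fell and 1052 rose, against 1963 and 1676 with all arrays. Without KO 3, 1098 rose when the filter was applied again. Muc6, Muc20 and Muc16 did not reach the intensity filter on any array. In 3 of the 7 genes in the fit, and in none of the 3 too dim for it, every KO array lay below every WT array. Over all genes tested, this held for 20.5%. The median difference was -0.21 over the 7 in the fit, -0.17 over all 10, and 0.02 over all genes tested.

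**Figure D1:**
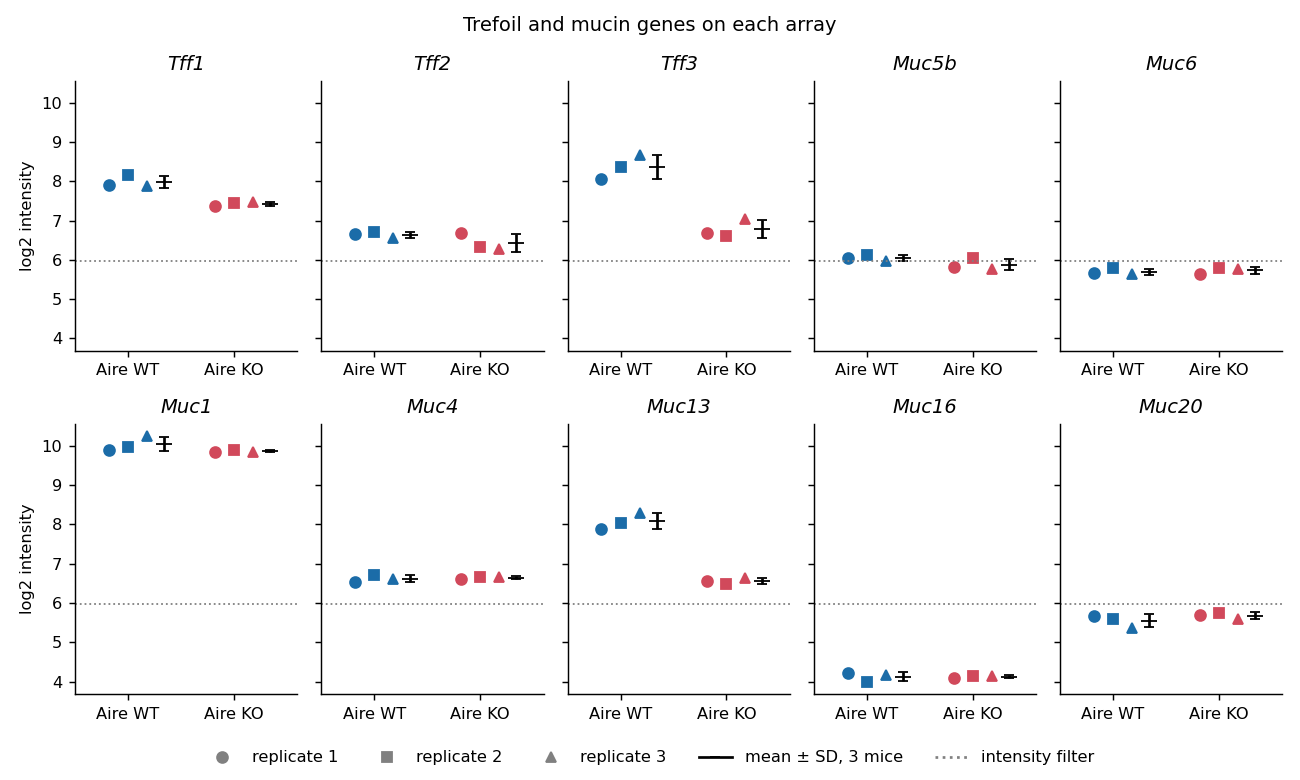
Log2 intensity (vertical axis) of each of the 10 genes on the 6 arrays, 3 Aire WT and 3 Aire KO mice, with the mean ± SD beside each group and the intensity filter of 5.97 as a dotted line. Marker shape gives the replicate number, which was not used to pair mice. The groups stand apart for Tff1, Tff3 and Muc13 and overlap for the other 7 genes; levels are not compared between genes, since each has its own probes.

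Tff3, the intestinal trefoil factor of goblet cells, had the largest difference of the 10. Its log2 intensities were 8.05, 8.36 and 8.66 in WT replicates 1 to 3 and 6.69, 6.60 and 7.04 in KO replicates 1 to 3. The lowest WT array lay 1.02 above the highest KO array, a wider distance than the range within either group. The means were 8.36 ± 0.30 and 6.78 ± 0.23 (SD, n = 3), a difference of -1.58 (SE 0.15), or 2.99-fold lower in KO. Of all genes tested, 0.83% had a lower difference. WT 3, the array with the highest T lineage sum, was also the highest for Tff3. Leaving out the highest WT array makes the difference smaller by construction, here -1.43. Without WT 1, the lowest WT array, it was -1.73. The part of T lineage cells in these values was not tested.

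Tff1, the trefoil factor of the gastric surface, also fell. It read 7.91, 8.15 and 7.88 in WT and 7.37, 7.44 and 7.47 in KO. The groups did not overlap, and the 3 KO mice lay within 0.1 of each other. The difference was -0.56 (SE 0.09), 1.47-fold, from 7.98 ± 0.15 to 7.43 ± 0.05 (SD, n = 3).

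Tff2, the spasmolytic peptide of gastric neck and duodenal glands, had overlapping groups, with 6.65, 6.70 and 6.55 in WT and 6.69, 6.32 and 6.27 in KO. KO 1 sat among the WT mice, while the other 2 KO mice lay below all of them. The difference was -0.21 (SE 0.11), from 6.64 ± 0.08 to 6.43 ± 0.23 (SD, n = 3). Leaving out KO 1 gave -0.34 and took Tff2 past the threshold, so the count of genes that fell was then 4. Without KO 3, the difference was -0.13. The 3 trefoil genes lie next to each other in the order Tff3, Tff2, Tff1, so the gene in the middle had the smallest difference of the 3.

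Muc13, a membrane mucin of the intestinal and airway surface, was the mucin of the 10 with the largest difference. Its values were 7.90, 8.04 and 8.30 in WT and 6.55, 6.48 and 6.63 in KO. The lowest WT array lay 1.26 above the highest KO array. The means were 8.08 ± 0.20 and 6.55 ± 0.08 (SD, n = 3), a difference of -1.52 (SE 0.11), or 2.87-fold lower in KO, and 0.91% of all genes tested had a lower difference. As with Tff3, WT 3 was the highest array. Without it the difference was -1.41, smaller by construction, and without WT 1, the lowest WT array, it was -1.61. The macrophage genes Adgre1 and Itgam differed by -1.58 and -1.29 on the same arrays, and their part in the values of Tff3 and Muc13 was not tested.

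Muc1, the membrane mucin of glandular epithelia whose cytoplasmic tail binds beta-catenin, did not pass. It read 9.90, 9.97 and 10.24 in WT and 9.85, 9.91 and 9.85 in KO. WT 3 was again the highest array, while KO 2 lay between the 2 lower WT arrays and the other KO arrays just below them. The difference was -0.17 (SE 0.10), and it was -0.07 without WT 3 and -0.24 without WT 1.

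Muc4, a membrane mucin that binds the receptor Erbb2, showed almost the same mean in both groups. It read 6.53, 6.72 and 6.62 in WT and 6.60, 6.66 and 6.67 in KO, so the KO mice lay inside the WT range. The difference of 0.02 (SE 0.08) ran from -0.03 to 0.07 when single arrays were left out.

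The sequences before the RefSeq starts of these 3 tested membrane mucins are shown because the mucin that fell can be set beside the 2 that did not pass. RefSeq's promoter table of build GRCm38.p6 matched 6 of the 10 genes, and Muc5b, Tff1, Tff2 and Tff3 have no entry in it. Each line gives the 250 bases before a start, 5′ to 3′ on the plus strand, with the letters TATAA in capitals where they occur. Muc13 has 2 starts in the table, at chr16:33793787-33794036 and chr16:33794239-33794488 for the windows shown, Muc1 has the window chr3:89228806-89229055 and Muc4 the window chr16:32735636-32735885.
Muc13 first start: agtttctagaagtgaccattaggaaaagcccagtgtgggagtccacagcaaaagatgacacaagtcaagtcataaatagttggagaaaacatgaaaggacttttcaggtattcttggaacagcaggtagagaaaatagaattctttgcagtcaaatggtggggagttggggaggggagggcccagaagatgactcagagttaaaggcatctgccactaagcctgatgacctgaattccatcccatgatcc
Muc13 second start: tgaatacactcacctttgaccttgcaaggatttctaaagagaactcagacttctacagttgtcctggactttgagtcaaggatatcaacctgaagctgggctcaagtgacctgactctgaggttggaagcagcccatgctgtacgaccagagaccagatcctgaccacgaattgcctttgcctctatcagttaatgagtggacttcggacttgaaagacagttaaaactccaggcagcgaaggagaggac
Muc1: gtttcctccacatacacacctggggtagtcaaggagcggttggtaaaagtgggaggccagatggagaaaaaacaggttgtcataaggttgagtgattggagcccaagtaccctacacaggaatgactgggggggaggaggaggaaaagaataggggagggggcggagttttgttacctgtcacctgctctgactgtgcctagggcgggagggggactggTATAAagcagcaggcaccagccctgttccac
Muc4: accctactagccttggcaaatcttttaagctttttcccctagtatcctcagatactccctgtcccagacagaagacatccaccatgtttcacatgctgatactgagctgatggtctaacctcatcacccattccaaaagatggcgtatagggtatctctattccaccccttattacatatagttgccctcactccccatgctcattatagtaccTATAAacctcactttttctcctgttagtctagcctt
TATAA, searched on the strand of the gene, occurs 1 time in the Muc1 window and 1 time in that of Muc4, and in neither Muc13 window. Of the matched genes that were too dim to test, Muc6 has TATAA in its window, while Muc16 and Muc20 do not. In the windows shown, the opposite-strand form, TTATA, occurs 1 time, in that of Muc4, where it overlaps no TATAA. Of all 32851 windows of this length, 16.0% hold TATAA on the gene's strand and 22.8% on either strand. The dinucleotide CG occurs 0 and 4 times in the Muc13 windows, 3 times in that of Muc1 and 1 time in that of Muc4, against a median of 6 over all windows. In the windows of Muc6, Muc16 and Muc20 it occurs 5, 0 and 3 times. A match of letters is a description and not a binding site.

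Muc5b, the gel-forming mucin of airway and salivary glands, lay at the edge of the filter. It read 6.04, 6.13 and 5.97 in WT and 5.83, 6.04 and 5.76 in KO, and 3 of these values exceed the filter. The groups overlapped, and the difference was -0.17 (SE 0.09). Muc6, the gel-forming mucin of gastric glands, lay just under it, with 5.67, 5.79 and 5.63 in WT, 5.63, 5.80 and 5.77 in KO and a difference of 0.04 (SE 0.09).

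Muc20, a membrane mucin of kidney and gut that binds the receptor Met, read 5.68, 5.59 and 5.36 in WT and 5.71, 5.75 and 5.59 in KO, with a difference of 0.14 (SE 0.10). Muc16, the large membrane mucin of the ocular and respiratory surface and a ligand of mesothelin, read 4.21, 4.00 and 4.16 in WT and 4.09, 4.15 and 4.14 in KO, with a difference of 0.00 (SE 0.09). RMA values carry no detection call, so these data do not say whether the 3 genes under the filter were expressed.

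The other mucins were a list of 15 names written from general knowledge, but with earlier results of these data known. This holds for all lists below too. Their counts are therefore a description, and nothing is read from setting them beside all genes tested. Of the 15, 11 had a probe set of their own and 8 were tested. Here 5 fell and 0 rose by limma at an adjusted p under 0.05 (6 and 1 at an unadjusted p under 0.05), with a median of -0.63 over the 8 and -0.25 over the 11. Over all genes tested, 14.1% fell and 12.0% rose (19.4% and 19.2% unadjusted), with a median of 0.02. Muc5ac, the gel-forming mucin of the gastric and airway surface, read 7.75, 7.68 and 7.76 in WT and 6.04, 5.96 and 5.98 in KO. Its groups were far apart with little spread inside them, and it fell 3.33-fold, from 7.73 ± 0.04 to 5.99 ± 0.04 (SD, n = 3, limma adjusted p = 6.2e-08). Muc15, a membrane mucin, read 7.25, 7.24 and 7.52 in WT and 5.93, 6.18 and 5.92 in KO, and fell 2.51-fold (limma adjusted p = 4.6e-06). Muc2, the gel-forming mucin of intestinal goblet cells, read 6.43, 6.63 and 6.76 in WT and 5.72, 6.14 and 5.97 in KO, and fell 1.58-fold (limma adjusted p = 0.0019). In all of these the groups did not overlap. In KO, 2 of the 3 arrays exceeded the filter for Muc5ac and 1 of the 3 for each of Muc15 and Muc2. The KO levels behind these folds thus lie near the filter. Mucl2, a salivary mucin-like gene, fell 8.42-fold, from 7.88 ± 0.40 to 4.81 ± 0.10 (SD, n = 3, limma adjusted p = 2.0e-07), and its KO arrays all lay under the filter, so the gene was in the fit through its WT level alone.

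The fifth, Muc3, was named after its values were seen. This membrane mucin of enterocytes read 6.83, 7.32 and 7.55 in WT and 6.70, 6.63 and 6.60 in KO, and fell by 0.59 on the log2 scale (SE 0.15, limma adjusted p = 0.013). The lysosomal sialomucin Cd164 at -0.25, Parm1 at 0.30 and Gm9573, for which RefSeq lists the synonym Muc21, at 0.02 did not pass. Parm1 rose without WT 3 (0.44, limma adjusted p = 0.0054) and with array weights (0.37, 0.0098). Cd164 fell without KO 2 (-0.30, limma adjusted p = 0.043), and with the 60th percentile filter, an offset of 32, trended robust variances or array weights (0.027 to 0.040). Muc19, Prol1 and Emcn were too dim to test.

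**Figure D2:**
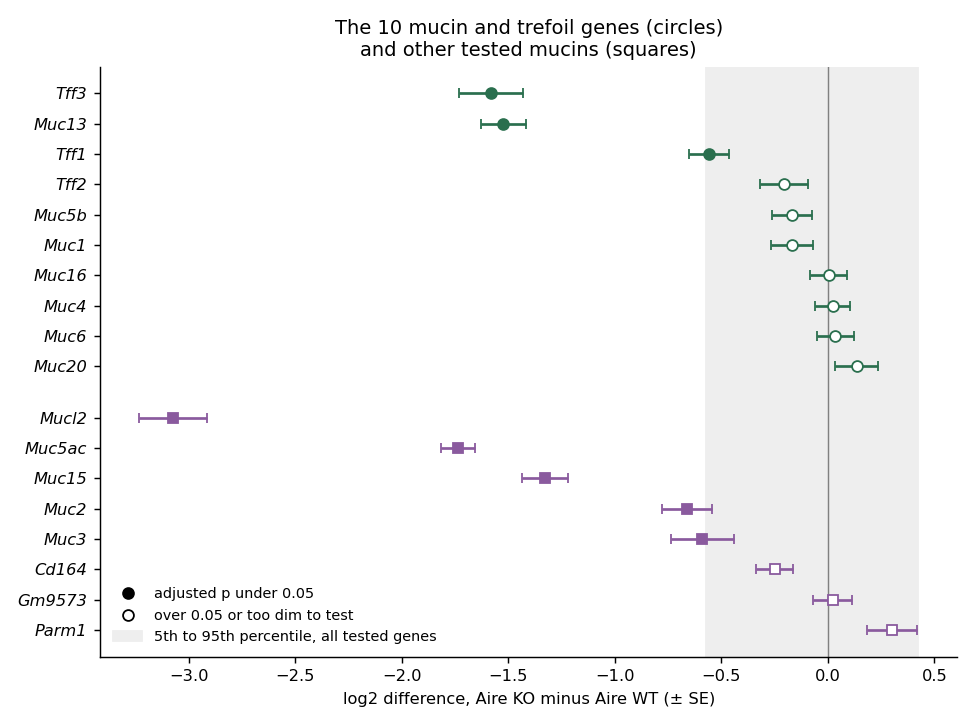
Log2 difference (horizontal axis, KO minus WT) with the SE of the limma fit for the 10 mucin and trefoil genes and, below them, the 8 other tested mucins; filled symbols passed an adjusted p of 0.05, and the grey band runs from the 5th to the 95th percentile of all genes tested (-0.57 to 0.43). Tff3 and Muc13 lie far to the left of the band at -1.58 and -1.52, with Mucl2, Muc5ac and Muc15 at -3.07, -1.74 and -1.33 among the other mucins.

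In the RefSeq gene order, several of these genes stand side by side, and the nearest tested genes on either side, which the choice of the 10 did not use, were looked up. Around Tff3, Tff2 and Tff1, 1 of 6 flanking genes fell and 2 rose (3 of the 6 at an unadjusted p under 0.05), against 14.1% and 12.0% of all genes tested (38.6% unadjusted, either way). Over the first 3 places together, 1 of 18 flanking genes fell and 4 rose (7 unadjusted). Umodl1, a uromodulin-like gene, fell by 0.31 on the log2 scale (SE 0.09, limma adjusted p = 0.031), while the serine protease gene Tmprss3, the nearest beyond Tff1, rose by 0.34 (SE 0.09, adjusted p = 0.021) and Ubash3a, a regulator of T cell receptor signalling, rose by 0.34 (SE 0.09, adjusted p = 0.018). The sterol exporter gene Abcg1, next to Tff3, stood at 0.01, Glp1r at 0.04 and Rsph1 at -0.04, and none of them passed. Each of these calls was lost in some fits with 1 array left out. Such fits have fewer mice, so a lost call need not mean a changed difference. Umodl1 lost its call when WT 2, KO 1 or KO 3 was left out (adjusted p from 0.066 to 0.13) or with an offset of 32 (0.055). Ubash3a lost its call when any of the same 3 arrays was left out (0.059 to 0.085), at differences of 0.28 to 0.33. Tmprss3 lost its call without KO 2 (0.055) or KO 3 (0.079).

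Muc6, Muc2, Muc5ac and Muc5b form the gel-forming mucin cluster and follow each other in that order. The 2 mucins in the middle, Muc2 and Muc5ac, fell, with differences of -0.66 and -1.74, while Muc5b at one end did not pass and Muc6 at the other was too dim to test. Of the 6 tested genes on either side of the cluster, 0 were called by limma (1 at an unadjusted p under 0.05). Tollip, an adaptor of Toll-like receptor signalling and the nearest beyond Muc5b, stood at -0.10, Brsk2 at 0.05 and Mob2 at -0.02. On the other side, Ap2a2 stood at -0.10, Chid1 at -0.02 and Gm16982 at 0.30. Gm16982 (adjusted p = 0.052) rose without WT 2 (0.37, adjusted p = 0.033) or KO 3 (0.38, 0.042). It also rose with another quantile normalization (0.32, 0.026), median centring (0.31, 0.035) or the replicate number as a block (0.30, 0.043).

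Next to Muc4, which did not pass, and Muc20, which was too dim to test, 0 of 6 flanking genes fell and 2 rose (3 of the 6 at an unadjusted p under 0.05). Rubcn, a regulator of autophagy, rose by 0.36 (SE 0.08, limma adjusted p = 0.0076) and Lrch3 by 0.31 (SE 0.10, adjusted p = 0.044), while Tfrc, the transferrin receptor gene, stood at -0.01, Tnk2 at -0.04, Tnk2os at 0.25 and Fyttd1 at -0.29. Lrch3 lost its call when WT 1, WT 2, KO 1 or KO 2 was left out (adjusted p from 0.11 to 0.14). It also lost it with no intensity filter (0.054) and with the replicate number as a block (0.070). Fyttd1 fell without WT 2 (-0.39, 0.020) and with array weights (-0.29, 0.045), and Tnk2os rose without WT 1 (0.39, 0.028). Muc13 was added to this look after its values had been seen. Of its 6 tested neighbours, 0 fell and 1 rose (2 of the 6 at an unadjusted p under 0.05): the integrin gene Itgb5, next to Muc13, rose 1.52-fold, from 7.72 ± 0.06 to 8.32 ± 0.05 (SD, n = 3, limma adjusted p = 0.00024). Heg1, on the other side, stood at 0.05, Slc12a8 at 0.02, Zfp148 at -0.01, Umps at 0.15 and Kalrn at -0.22, and none of these passed.

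**Figure D3:**
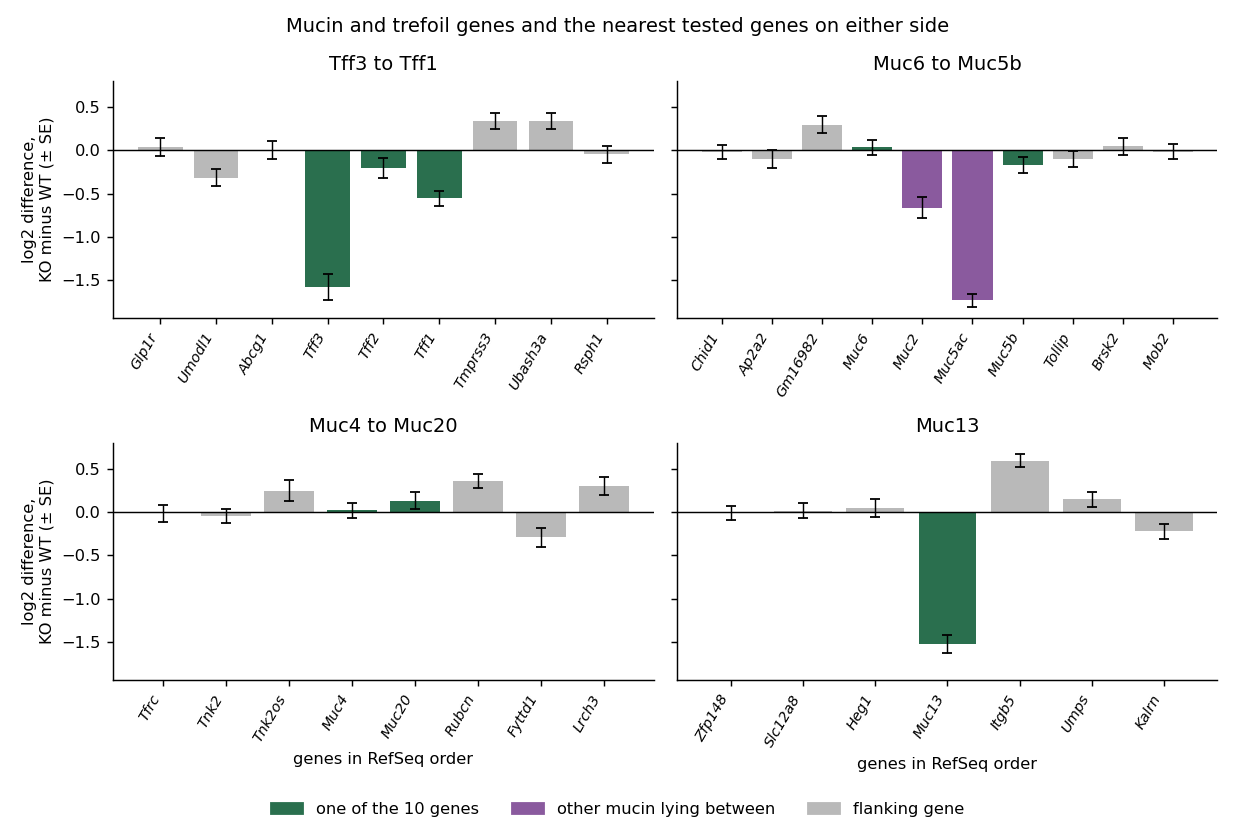
Log2 difference (vertical axis, KO minus WT, bars with SE) of genes in their RefSeq order at 4 places: the trefoil genes, the gel-forming mucin cluster, Muc4 with Muc20, and Muc13, each with the 3 nearest tested genes on either side in grey. Tff3 at -1.58, Muc5ac at -1.74 and Muc13 at -1.52 are the deepest bars, while the grey flanking genes lie between -0.31 and 0.60; Muc2 at -0.66 and Tff1 at -0.56 stand beside or near them.

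The next list holds genes of goblet and other secretory cells. Of its 17 tested genes, 4 fell, 3 rose and 10 did not pass, against 14.1% lower and 12.0% higher over all genes tested. Unadjusted, at a limma p under 0.05, 5 were lower and 3 higher, against 19.4% and 19.2%. The median was -0.03 over these 17 and -0.05 over the 28 measured. Clca1, a protein secreted with mucus by goblet cells, fell 3.22-fold, from 8.84 ± 0.29 to 7.15 ± 0.39 (SD, n = 3, limma adjusted p = 5.0e-05). Pigr, the receptor that carries polymeric immunoglobulin across epithelia, fell 2.17-fold, the goblet cell peptide gene Spink4 1.68-fold and the transcription factor gene Creb3l1 1.54-fold. Itln1, the lectin intelectin, rose 1.53-fold, from 7.70 ± 0.04 to 8.31 ± 0.23 (SD, n = 3, limma adjusted p = 0.0019), and the transcription factor gene Gfi1 rose 1.29-fold. Ern2, an endoplasmic reticulum stress sensor of mucous cells, rose 1.21-fold with limma adjusted p = 0.048. This call was lost when WT 1, WT 3 or any KO array was left out (adjusted p from 0.079 to 0.14). It was also lost with no intensity filter (0.060), an offset of 32 (0.065), trended robust variances (0.065) or the replicate number as a block (0.074).

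Spdef, the transcription factor that drives goblet cell maturation, read 7.24, 7.45 and 7.16 in WT and 7.37, 7.38 and 7.22 in KO. Its groups overlapped, and the difference of 0.04 (SE 0.10) did not pass. Foxa3, another goblet cell transcription factor, and Agr2, the disulfide isomerase that folds gel-forming mucins, were too dim to test. Agr2 read 6.14, 6.06 and 5.82 in WT and 5.16, 5.38 and 5.51 in KO. Its difference was -0.66, and every KO array lay below every WT array. Foxa3 stood at 4.81 ± 0.21 and 5.03 ± 0.12 (SD, n = 3). Another 9 of the 28 measured genes were too dim as well. With no intensity filter, 9 of the 28 fell and 2 rose by limma, against 2191 and 1781 of all 19938 genes.

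For the gastric surface and glands, where Tff1 and Tff2 are made, 15 genes were tested, of which 5 fell and 2 rose, against 14.1% and 12.0% of all genes tested. Unadjusted, at a limma p under 0.05, 7 were lower and 2 higher, against 19.4% and 19.2%. The median was -0.21 over these 15 and -0.19 over the 21 measured. The pepsinogen gene Pgc fell 9.12-fold, from 9.13 ± 0.21 to 5.94 ± 0.22 (SD, n = 3, limma adjusted p = 2.4e-08), Muc5ac, which also stands among the mucins, 3.33-fold, the prostate stem cell antigen gene Psca 3.01-fold and Cblif, the intrinsic factor gene, 1.53-fold. The fifth, the cathepsin gene Ctse, named after its values were seen, fell 1.44-fold. Of the 3 KO arrays, 2 exceeded the filter for Pgc, 2 for Muc5ac and 1 for Psca. Vsig1, a junctional adhesion protein of the stomach, rose 2.46-fold, from 6.91 ± 0.24 to 8.21 ± 0.02 (SD, n = 3, limma adjusted p = 7.8e-06), and Anxa10 rose 1.88-fold. Gkn1, a gastrokine of the surface cells that make Tff1, stood at -0.28 and did not pass, though it fell without WT 2 (-0.39, limma adjusted p = 0.039), and Gkn2, a gastrokine that binds Tff1, was too dim to test at 5.45 ± 0.07 and 5.27 ± 0.08 (SD, n = 3).

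The list called airway secretory also holds the keratin genes Krt13 and Krt4, which are not secreted proteins. Of its 11 tested genes, by limma 9 fell, these keratins among them, and 0 rose (9 and 0 at an unadjusted p under 0.05). Over all genes tested, 14.1% fell and 12.0% rose (19.4% and 19.2% unadjusted). The median was -1.46 over these 11 and -1.30 over the 12 measured. Krt13, a keratin of stratified mucosa, fell 3.21-fold (limma adjusted p = 2.2e-07), the antimicrobial iron binder Ltf 3.16-fold (6.8e-07), the club cell cytochrome Cyp2f2 2.74-fold (6.8e-07) and the secreted airway protein gene Bpifb1 4.01-fold (8.8e-07). Scgb3a1 and Nkx2-1 did not pass, and Scgb3a2 was too dim to test. Among the genes that fell, Ltf and Bpifa1 exceeded the filter on 1 KO array each. Of the 9, Scgb1a1, Bpifb1, Krt13 and Krt4 were in the fit through their WT levels alone and so had to be lower in KO. They left it when a WT array was dropped and the filter applied again, and 5 of 7 tested genes then fell.

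**Figure D4:**
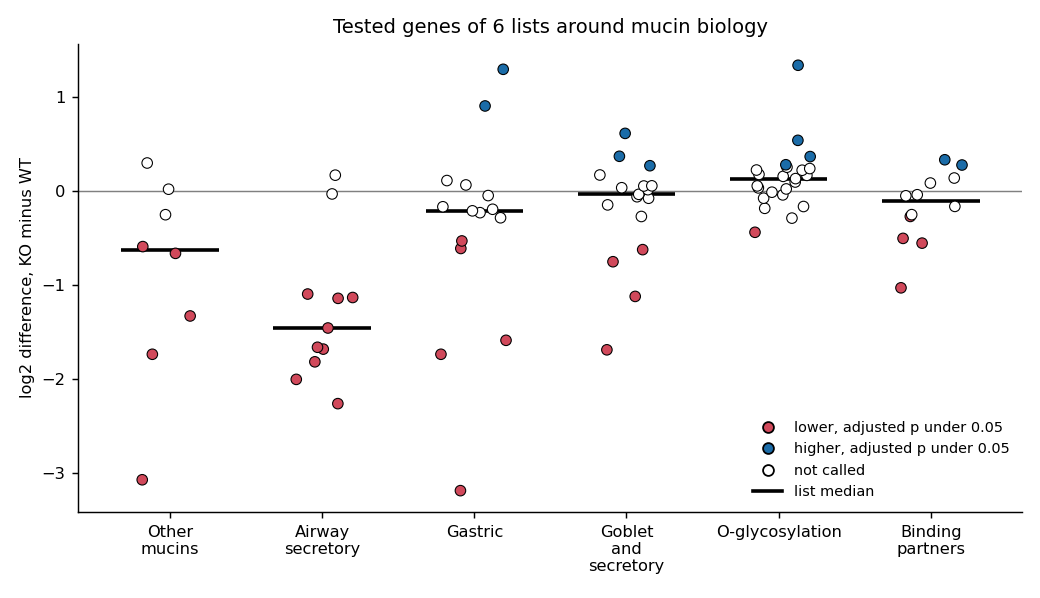
Log2 difference (vertical axis, KO minus WT) of each tested gene in 6 lists around mucin biology, coloured by the limma call, with the list median as a bar. The medians of airway secretory genes and other mucins are -1.46 and -0.63, with 4 and 1 genes that entered through WT levels alone and had to be lower. Among binding partners, 1 gene entered in the same way. Goblet and O-glycosylation genes scatter on both sides of 0. Horizontal spread within a list only separates the points.

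Of the enzymes that build mucin-type O-glycans, 23 were tested, of which 1 fell and 4 rose, against 14.1% and 12.0% of all genes tested. At an unadjusted limma p under 0.05 the counts were 2 lower and 8 higher, against 19.4% and 19.2%. The median was 0.13 over these 23 and 0.12 over the 34 measured. C1galt1, which extends the first sugar to the core structure common in mucins, fell by 0.44 on the log2 scale (SE 0.12, limma adjusted p = 0.022), a call lost without KO 1 (0.077) or KO 3 (0.079). The sialyltransferase gene St6galnac3 rose 2.54-fold, from 5.76 ± 0.09 to 7.10 ± 0.26 (SD, n = 3, limma adjusted p = 1.1e-05). Its KO levels alone lay above the filter, so it had to be higher in KO. Gcnt1, which branches O-glycans, rose 1.46-fold (adjusted p = 0.00098). B3gnt3 (1.29-fold) and St6galnac6 (1.22-fold) also rose, each with limma adjusted p = 0.039. B3gnt3 lost that call when WT 2, WT 3, KO 1 or KO 2 was left out (0.083 to 0.13), and with array weights (0.061). St6galnac6 lost its call when WT 2, WT 3, KO 1 or KO 3 was left out (0.086 to 0.14). The same held with an offset of 32 (0.051), trended robust variances (0.052) or the replicate number as a block (0.054). Galnt3, one of the enzymes that start O-glycans, stood at -0.01 and did not pass. The counts of this list move with the processing: 0 fell without KO 1 or KO 3, 2 rose without KO 1, and 2 fell and 2 rose without WT 2. With the filter applied again as well, 1 rose without KO 1 and 2 rose without KO 2 or KO 3. With another quantile normalization, 7 of 24 rose.

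For proteins that bind mucins or trefoil factors, 12 genes were tested, of which 4 fell and 2 rose, against 14.1% and 12.0% of all genes tested. Unadjusted, at a limma p under 0.05, 5 were lower and 2 higher, against 19.4% and 19.2%. The median was -0.10 over these 12 and -0.05 over the 13 measured. Dmbt1, a mucosal scavenger protein that binds trefoil factors, fell 2.04-fold, from 6.58 ± 0.12 to 5.55 ± 0.03 (SD, n = 3, limma adjusted p = 7.2e-06). Its KO arrays all lay under the filter, so Dmbt1 was in the fit through its WT level alone and had to be lower in KO. Erbb3, which pairs with the Muc4 partner Erbb2, fell 1.47-fold (adjusted p = 0.00070), Cxcr4, a receptor proposed for Tff2, 1.42-fold (0.020) and Egfr 1.20-fold (0.027). The kinase gene Src rose 1.26-fold (0.0090) and Erbb2 1.21-fold (0.040), while Msln, which encodes the Muc16 ligand mesothelin, stood at 0.09 and Met, bound by Muc20, at -0.16, and neither passed. Cxcr4 lost its call when WT 3, KO 1 or KO 3 was left out (0.057 to 0.085), Egfr when WT 1, WT 2, KO 1 or KO 3 was (0.054 to 0.10), and Erbb2 when any array but WT 3 was (0.050 to 0.17). With the replicate number as a block, Egfr (0.065) and Erbb2 (0.069) lost their calls too. Of this list, 2 fell without KO 1 or KO 3, or without any WT array when the filter was applied again, and 1 rose without any array but WT 3.

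Across the 6 arrays, the tested genes with values most like those of Tff3 were Alpl, Bcl2l15, S100a10, Prg3 and Krt23, with Pearson r from 0.997 to 0.998. Their differences were -1.02 for the alkaline phosphatase gene Alpl, -1.57 for Bcl2l15, of the Bcl2 family of apoptosis regulators, -0.70 for S100a10, a partner of annexin A2, -0.68 for the proteoglycan gene Prg3 and -1.29 for the keratin gene Krt23, all of which fell. Muc13 followed at rank 29 with an r of 0.991. The 6 arrays fall into the same 2 groups for every gene that differs between genotypes, and 1180 tested genes had an r above 0.9, so these values are a description and carry no p.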

How the data were processed

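RNA from 3 Aire WT and 3 Aire KO mice was hybridised to 6 whole-transcript mouse arrays. The authors deposited probe set intensity values made with RMA, per the submitters' processing notes, on a linear scale. RMA subtracts background, gives all arrays 1 distribution and summarises probes. Not given in the sources used here are its version, the genome build and which arrays were normalized together. A change in the RNA content of cells is lost in such values, and folds of dim genes come out too small. The number of arrays limits the precision.

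Of 35512 probe sets, 21789 have 1 symbol in the platform annotation, 1621 have several and 12102 have none. The intensity was put on the log2 scale with a pseudocount of 0. A gene was its 1-symbol probe set of highest mean, and 13925 of 19938 genes exceeded the 40th percentile over the whole table on at least 3 arrays. Genotype was tested with limma 3.58.1 (lmFit, eBayes; two-sided, no covariate) in R 4.3.3 with Benjamini-Hochberg adjustment over all 13925 genes. It was tested on simulated data. Figures were drawn with matplotlib 3.10.9.

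The 10 genes and all gene lists were chosen with earlier results of these data known. Named genes were the 10 genes, up to 4 called genes per list and direction in order of adjusted p, Muc2, Muc5ac, Spdef, Foxa3, Agr2, Gkn1, Gkn2, Galnt3, C1galt1, Erbb2, Msln and Aire, the 3 nearest tested genes on each side in the gene order, and the 5 genes most correlated with the gene of largest difference. Others were chosen after their values were seen. Gene order came from RefSeq GRCm38.p6, without its coordinates, as the files name no build. The replicate numbers were checked for pairing: deviations of same-numbered arrays correlated at -0.02, -0.21 and -0.06, and those of other pairs at -0.10 to 0.15. With 3 arrays per group this cannot exclude a pairing, and the main fit used none. Alternatives changed the filter, normalization, offset, probe set rule, variance model, array weights and block, and left out each array.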

Additional observations from a re-analysis of the deposited data

How the results depend on the processing

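Under 21 alternatives, Tff3, Muc13 and Tff1 fell each time and none of the 10 genes rose. With single arrays left out, 3 to 4 of the 10 fell, and the differences ran from -1.73 to -1.43 for Tff3, -1.61 to -1.41 for Muc13, -0.61 to -0.47 for Tff1, -0.34 to -0.13 for Tff2, -0.24 to -0.07 for Muc1, -0.25 to -0.11 for Muc5b, -0.03 to 0.07 for Muc4, 0.00 to 0.09 for Muc6, -0.06 to 0.05 for Muc16 and 0.04 to 0.20 for Muc20. An offset of 32, which shrinks the fold of dim genes by construction, gave -1.26 for Muc13. Leaving out single arrays, 1363 to 1877 of all genes fell and 1012 to 1547 rose, with 1052 without KO 1 and, with the filter applied again, 1098 without KO 3. In the same fits, 4 to 6 other mucins fell and 0 to 1 rose, 0 to 2 O-glycosylation genes fell and 1 to 4 rose, 4 to 5 goblet genes fell and 2 to 3 rose, 5 to 6 gastric genes fell and 2 rose, 5 to 9 airway genes fell, 2 to 4 binding partners fell and 1 to 2 rose, and 0 to 1 flanking genes fell and 2 to 4 rose. With array weights, 1 other mucin rose and 2 flanking genes fell. With no intensity filter, 3 O-glycosylation genes and 9 goblet genes fell, since more were tested. With the stricter filter at the 60th percentile, which tests fewer genes, 2 O-glycosylation genes fell and 2 rose, 2 goblet genes fell and 1 rose, 3 gastric genes fell, and 0 flanking genes fell and 2 rose. With the offset of 32, 2 O-glycosylation genes and 0 flanking genes fell, and with another quantile normalization 7 O-glycosylation genes rose. With the replicate number as a block, 1742 of all genes fell and 1368 rose, 1 binding partner rose, and 3 of the 10 genes fell, as without it. The labels do not say whether the numbers pair the mice. Fits on 5 arrays used the genes tested before and, in a second run, a renewed filter. They have fewer mice, so a call can be lost with little change in the difference. The cause of these shifts was not tested where none is named. Without detection calls, the distance of the signal from background is unknown, above all for Muc5b, Muc6, Muc16 and Muc20.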
